A study of Mus musculus with 931 samples.

Results

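The cytosolic ribosomal protein genes encode the proteins of the small and large subunits of the ribosome outside mitochondria. Members were chosen by symbol alone: Rpsa, Rplp0, Rplp1, Rplp2, and every symbol made of Rps or Rpl, a number and at most an a, x, l or l1. The rule took 84 of 40824 gene rows, 51 for the large subunit and 33 for the small, and all 84 were listed in both the bulk and the single-cell count tables. In the GENCODE annotation of mouse build GRCm38, 82 members are protein coding, Rps4l is a transcribed processed pseudogene and Rps12l1 a processed pseudogene. Symbols of other forms, such as Rps3a1, Rpl36al and Fau, fall outside the rule, as do 246 rows whose names mark them as ribosomal protein pseudogenes.

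The study followed mouse pancreatic islet cells from before birth (E17.5) to adulthood (P60). Alpha cells, which secrete glucagon, came from Gcg-Cre; Rosa-RFP mice on a mixed C57BL/6, CBA/J and C3H background, where glucagon-promoter Cre switches on a red reporter. Beta cells, which secrete insulin, came from Ins1-RFP mice on a mixed C57BL/6 and C3H background, where the insulin 1 promoter drives the reporter. Single cells were taken by FACS or picked by hand and made into Smart-seq2 libraries, a full-length method without molecular identifiers. After grouping by labelled batch there were 20 alpha-cell batches (328 cells), 4 from E17.5, 3 each from P0 and P9, 2 from P15, 3 from P18 and 5 from P60. There were 25 beta-cell batches (538 cells), 5 each from P3 and P60 and 3 from each other stage. The bulk experiment had 2 strand-specific poly(A) libraries of sorted Ins1-RFP+ cells at each of the same 7 stages, 14 in all. Cell type and mouse line cannot be told apart in any comparison of alpha with beta cells.

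Reads, in M (mega-reads), summed to between 0.521 and 1.80 M per cell (median 1.15 M), 5.96 to 49.1 M per batch and 10.3 to 21.4 M per bulk library. Levels are counts-per-million values scaled by TMM factors (CPM), which set most genes of 2 libraries to the same average and leave the hormone mRNAs little weight. The hormone genes checked the labels: Gcg averaged 437659 CPM in P60 alpha cells and 49.2 CPM in P60 beta cells, and Ins2 averaged 129 CPM in P60 alpha cells and 462881 CPM in P60 beta cells. Exocrine acinar markers summed to at most 1284 CPM in any single-cell batch, but in bulk to between 21965 and 61872 CPM at P60 and between 1996 and 6866 CPM at E17.5. Bulk differences between these stages therefore move with acinar RNA, and fewer cells of a type and less RNA per cell cannot be told apart in bulk samples. The batches and libraries are not stated to be separate animals, so p-values measure the spread between batches, which may be technical.

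Each ribosome carries a single copy of nearly every ribosomal protein, and cells make these proteins together with ribosomal RNA in the nucleolus. In mammals most ribosomal protein mRNAs open with a run of pyrimidines, the 5′ terminal oligopyrimidine (TOP) tract, through which the growth kinase mTORC1 and the RNA-binding protein LARP1 govern their translation and stability. Islet cells in late maturation devote much of their mRNA to hormones, which all other transcripts share the remaining reads with.

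Because TOP mRNAs begin with pyrimidines, runs near the start are shown here for some named members that moved with stage or differed between the cell types. Other named members that held a run, such as Rpl9, Rpl36a and Rps6, are not printed. RefSeq promoter windows (build GRCm38.p6, 250 bases before to 50 after an annotated start) were given for 62 of the 84 members, as 74 windows. Capitals mark the longest run of at least 8 pyrimidines between 30 bases before and 50 bases after the annotated start, and each line is 30 bases of the sense strand, 5′ to 3′.
Rpl10a, chr17:28328572-28328601, plus strand: aagcgctctgCCTTCTTTCCggtttccgcg
Rpl13, chr8:123102324-123102353, plus strand: cgtgacgtcaCTTCCCTTTCgcctgatttt
Rpl13a, chr7:45128722-45128751, minus strand: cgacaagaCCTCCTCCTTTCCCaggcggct
Rpl15, chr14:18270967-18270996, minus strand: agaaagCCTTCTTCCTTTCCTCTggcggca
Rpl34, chr3:130730330-130730359, minus strand: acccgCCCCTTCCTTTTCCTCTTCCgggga
Rpl38, chr11:114668568-114668597, plus strand: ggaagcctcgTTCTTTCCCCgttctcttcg
Rps18, chr17:33955647-33955676, minus strand: tcacttccgCTCTCTCTTCCacaggaggcc
Rps21, chr2:180257399-180257428, plus strand: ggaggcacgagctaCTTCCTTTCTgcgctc
Rps23, chr13:90923142-90923171, plus strand: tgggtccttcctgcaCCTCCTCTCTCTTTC
Rps25, chr9:44407684-44407713, plus strand: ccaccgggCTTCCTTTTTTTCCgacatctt
The run covered the annotated start in 15 of the 49 members that held one and lay elsewhere in the stretch in the others, as in Rps23 and Rps21 (downstream) and Rps25 and Rpl13 (upstream), so a run is not shown to be the 5′ end of the mRNA. Such a run stood in the windows of 49 of the 62 members (79.0%) and of 8735 of 27025 genes in the whole table (32.3%). The letters CTTTCC on the sense strand of the same stretch were found for 18 members (29.0%) and for 4.36% of all genes, and any such match may lie inside a longer run. The letters CCGGAAG, the core that ETS-family factors bind, were found on either strand of the full 300-base window for 25 members (40.3%) and for 9.93% of all genes. Between E17.5 and P60, a run was held by 30 of 34 members with a window that rose in alpha cells and 18 of 26 that were not called there, and by 8 of 11 that fell in beta cells and 40 of 49 that were not called there. The 13 members with a window and no run were Rpl10l, Rpl22, Rpl23, Rpl24, Rpl27, Rpl7l1, Rplp0, Rps13, Rps16, Rps28, Rps3, Rps4x and Rpsa. Of these, Rplp0, Rps3, Rps4x and Rpsa rose in alpha cells, and Rpl27, Rplp0 and Rps16 fell in beta cells.

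A read was found in all 866 cells for 67 members and in over 850 cells for another 10. Rps4l was found in 702 cells, Rpl7l1 in 744 and Rpl23a in 788. The 4 others were nearly silent: Rpl3l, the muscle form of Rpl3, had a read in 6 cells, Rpl39l and Rpl10l, both known from the testis, in 5 and 4 cells, and Rps12l1 in 0 of 866 cells. Filtering on low counts left 81 members of 18537 genes in the single-cell tests, without Rpl10l, Rpl39l and Rps12l1, and 80 members of 16086 genes in bulk, where Rpl3l also dropped out.

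Per kilobase of the gene length deposited with the counts, the highest members over the 45 single-cell batches were Rps27, Rpl41 and Rps14, at 543, 528 and 516 CPM per kilobase. Among members that passed the filter, Rpl23a (7.04), Rpl7l1 (13.4) and Rps15a (19.4 CPM per kilobase) were lowest apart from Rpl3l (0.05). In bulk, Rpl10, Rplp1 and Rps14 led, at 509, 490 and 437 CPM per kilobase. The bulk level was within 2-fold of the single-cell level for 64 of 80 members, with a median ratio of bulk to single cells of 1.37. All bulk libraries were of beta cells. Of the 45 single-cell batches 20 were of alpha cells, so these ratios mix cell type with assay. Rpl23a was 39.0 times higher in bulk (274 CPM per kilobase in bulk, 7.04 in single cells), while Rpl24 stood at 0.0436 of its single-cell level (1.21 in bulk, 27.8 in single cells) and Rps27 at 0.204 (111 in bulk, 543 in single cells). In P60 beta cells alone, Rpl23a, Rpl24 and Rps27 had 240, 0.711 and 135 CPM per kilobase in bulk and 4.30, 19.7 and 379 in single-cell batches. These ribosomal genes have many near-identical pseudogene copies, and how reads that match several places were counted is not given in the sources used here. Nor is the handling of strand, and only the bulk libraries are described as strand-specific. The level of any single member is therefore uncertain, and the cause of these differences between assays was not tested. Rows named as pseudogenes held 0.200 to 0.619 reads per 100 member reads in single-cell batches and 0.599 to 1.50 in bulk libraries.

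The summed level of the 84 members is given for each stage as a description. In alpha cells it averaged 10618 ± 2006 CPM at E17.5 (SD, n = 4) and 14384 ± 3370 CPM in P0 batches (n = 3), then 15478 ± 1477 CPM for P9 (n = 3), 16860 ± 1272 CPM for P15 (n = 2), 19384 ± 1605 CPM for P18 (n = 3) and 15447 ± 1875 CPM for P60 (n = 5). In beta cells it averaged 10045 ± 1630 CPM at E17.5 (SD, n = 3) and 11007 ± 1485 CPM in P0 batches (n = 3), then 8155 ± 138 CPM for P3 (n = 5), 8284 ± 2164 CPM for P9 (n = 3), 8765 ± 1224 CPM for P15 (n = 3), 7803 ± 1610 CPM for P18 (n = 3) and 7675 ± 400 CPM for P60 (n = 5). The alpha-cell average was highest at P18 and lowest at E17.5, and the beta-cell average was highest at P0 and lowest at P60. Alpha- and beta-cell batches overlapped at E17.5 and P0 and were apart at P9, P15, P18 and P60, where the alpha-cell average was 1.87, 1.92, 2.48 and 2.01 times the beta-cell average. Expressed as a share of all reads other than the hormone genes, members made up 2.54% ± 0.16 in P60 alpha cells and 1.98% ± 0.31 in E17.5 alpha cells, and 1.22% ± 0.06 in P60 beta cells and 1.73% ± 0.27 in E17.5 beta cells.

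**Figure D1:**
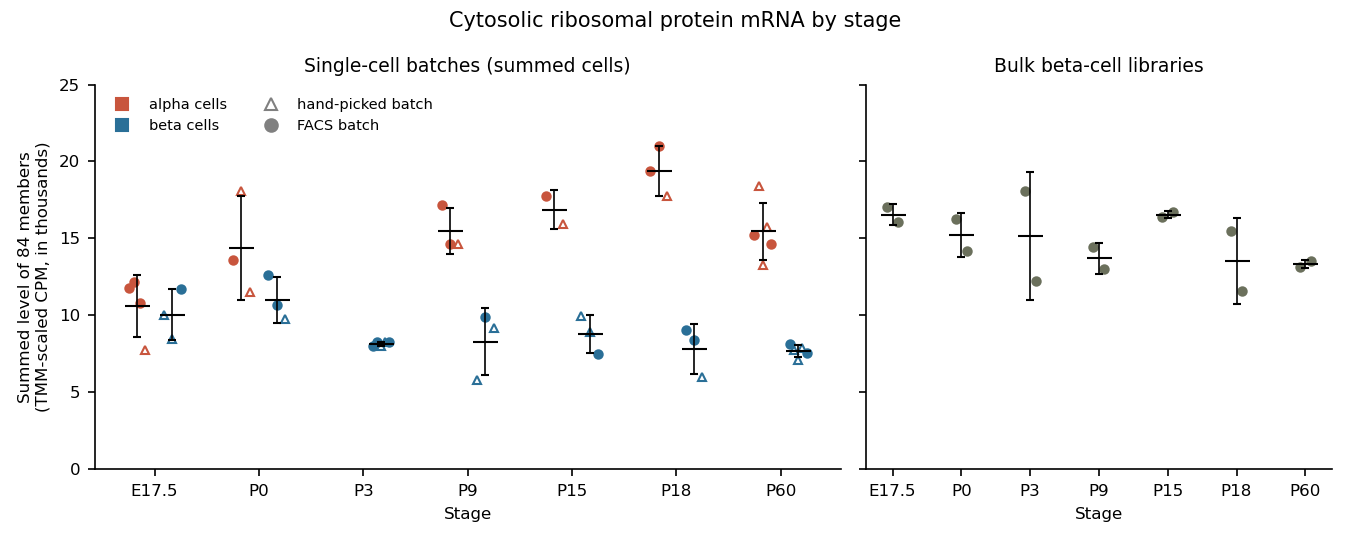
Summed level of the 84 members (TMM-scaled CPM) by stage, for single-cell batches of alpha and beta cells (left; filled circles FACS, open triangles hand-picked) and for bulk beta-cell libraries (right). Each point is a batch or library, and bars give mean ± SD; from P9 on, all alpha-cell batches lie above all beta-cell batches of the same stage.

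Individual cells spread widely around these averages. In P60 alpha cells the share of reads from members ran from 0.84% to 3.33% over 83 cells, and in P60 beta cells from 0.35% to 1.00% over 129 cells. The 2 ranges meet only between 0.84% and 1.00%. The hormone genes took 42.2% ± 5.2 of reads in P60 alpha cells and 14.1% ± 1.2 in E17.5 alpha cells, and 53.9% ± 1.9 in P60 beta cells and 26.1% ± 3.3 in E17.5 beta cells (SD over batches). Reads of large-subunit over small-subunit members averaged 1.48 ± 0.05 in P60 and 1.39 ± 0.02 in E17.5 alpha cells, and 1.58 ± 0.05 in P60 and 1.49 ± 0.04 in E17.5 beta cells.

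In alpha cells, 43 of 81 ribosomal protein genes were higher at P60 than at E17.5 and 1 was lower, by edgeR's quasi-likelihood test with Benjamini-Hochberg adjustment over all 18537 genes. Of all genes, 9.97% were called, 4.3% higher and 5.66% lower. The members' median log2 fold change was 0.59, against 0.00 for all genes tested, and 79 of 81 were above 0. Both subunits took part, with 27 of 49 large-subunit members and 16 of 32 small-subunit members called higher. Without the hand-picked batch 4 of E17.5, which held 6 cells and the lowest summed level of its stage (7732 CPM, against 10816 to 12170 in the other E17.5 batches), 23 rose and 1 fell.

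Rplp1, an acidic protein of the ribosomal stalk that recruits elongation factors, had 222, 319, 198, 273 and 247 CPM in the P60 alpha batches and 123, 114, 98.1 and 65.1 CPM in the E17.5 alpha batches. All P60 batches lay above all E17.5 batches (log2 fold change 1.41 ± 0.20 SE, edgeR adjusted p = 7.03e-06). Rps23, a small-subunit protein at the decoding centre, had 132, 160, 114, 120 and 109 CPM at P60 and 60.3, 64.4, 46.8 and 32.7 CPM at E17.5, again without overlap (1.39 ± 0.19, edgeR adjusted p = 3.24e-06). Rps21, another small-subunit protein, had 131, 181, 103, 128 and 144 CPM at P60 and 64.6, 75.3, 64.0 and 30.7 CPM at E17.5 (1.31 ± 0.24, edgeR adjusted p = 0.000307). Its groups were also apart. Rpl38, Rpl37 and Rpl13 of the large subunit followed, with log2 fold changes of 1.19, 1.17 and 1.06.

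The member that fell in alpha cells was Rps4l, the transcribed pseudogene related to Rps4x. It had 25.6, 27.4, 39.1, 17.3 and 31.0 CPM at P60 and 99.9, 77.5, 116 and 53.9 CPM at E17.5, and the groups did not overlap (log2 fold change -1.56 ± 0.30, edgeR adjusted p = 0.000512). Rps4x itself, the X-linked gene for the small-subunit protein, rose (0.71 ± 0.19, edgeR adjusted p = 0.0134). Xist, made from the inactive X chromosome of females, was at 0.0 to 0.2 CPM in P60 alpha batches and at 52.8 to 283 CPM in E17.5 alpha batches. Sex and stage therefore cannot be told apart in these alpha-cell comparisons. Xist of beta-cell and bulk samples is not given here, so balance of sex is not shown for the other comparisons either, including alpha against beta cells.

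The direction in alpha cells rests on the scale used. Against library totals, 2 members rose and 17 fell, with a member median of -0.17 and a median over all genes of -0.73. Scaled to the ERCC spike-in RNAs, 0 rose and 1 fell, with medians of 0.07 for members and -0.55 for all genes. On the mean log2(TPM + 1) per cell, tested with limma, 45 members fell and the medians were -0.53 and -0.44. Shares of all genes called on these scales are not given here, so the counts of falls cannot be read as particular to the members. Member reads per ERCC read averaged 0.47 ± 0.26 at P60 and 0.40 ± 0.07 at E17.5 (SD over batches).

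**Figure D2:**
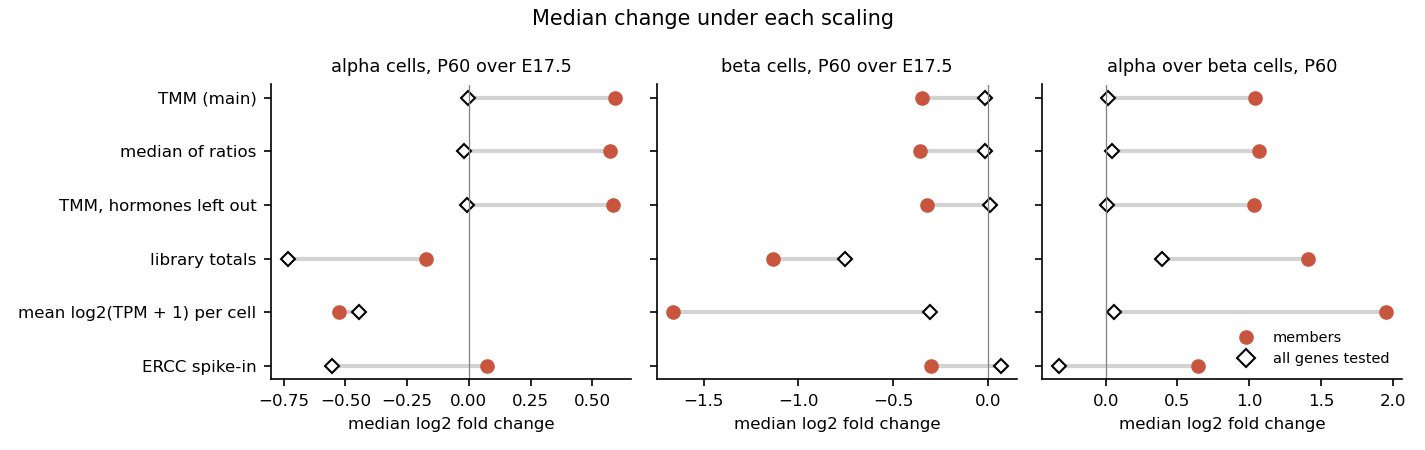
Median log2 fold change of the members (circles) and of all genes tested (diamonds) under 6 ways of scaling the single-cell counts, for alpha cells (P60 over E17.5), beta cells (P60 over E17.5) and alpha over beta cells at P60. The alpha-cell member median lies at 0.59 under TMM and at -0.53 on mean log2(TPM + 1), while the alpha-over-beta median at P60 stays between 0.64 and 1.95.

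In beta cells, 15 of 81 ribosomal protein genes fell between E17.5 and P60 and 0 rose, where 6.96% of all genes were called, 3.88% lower and 3.08% higher. The median was -0.35, against -0.01 for all genes, and 77 of 81 members lay below 0. Between P0 and P60, 18 fell and 0 rose (4.92% of all genes were called, 3.05% lower and 1.87% higher), with a median of -0.48 against -0.04 and 80 of 81 members below 0. Against E17.5 the count was 6 without beta E17.5 batch 1 and 8 without batch 3, and against P0 it was 8 without beta P0 batch 1 and 10 without beta P60 batch 5. With FACS batches alone 2 fell against E17.5 and 6 against P0. With hand-picked batches alone the counts were 1 and 0. Under ERCC scaling they were 0 and 1. How many of all genes were called in these alternative fits is not given here, so a loss of calls particular to members is not shown.

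Rpl15, a large-subunit protein, had 77.9, 75.1, 72.1, 77.5 and 84.8 CPM in the P60 beta batches and 138, 112 and 149 CPM in the E17.5 beta batches (log2 fold change -0.78 ± 0.14, edgeR adjusted p = 0.000255). The P60 batches stood close together and below every E17.5 batch. Rps16, a small-subunit protein, had 89.3, 86.2, 66.4, 87.5 and 78.9 CPM at P60 and 132, 120 and 164 CPM at E17.5, also apart (-0.77 ± 0.16, edgeR adjusted p = 0.00174). Rps4l fell here too, with 18.2, 30.1, 28.5, 23.9 and 22.0 CPM at P60 and 78.4, 38.4 and 68.1 CPM at E17.5 (-1.32 ± 0.31, edgeR adjusted p = 0.00544). Its lowest E17.5 batch was still above the highest P60 batch, and without beta E17.5 batch 1 it no longer passed the test (-1.06).

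Against P0, a fall was seen in Rpl10a, a large-subunit protein of the stalk that lines the tRNA exit site. It had 51.5, 45.7, 40.8, 40.7 and 37.3 CPM at P60 and 94.8, 80.4 and 84.0 CPM at P0 (-0.94 ± 0.17, edgeR adjusted p = 0.000409). No P60 batch reached the lowest P0 batch. Rplp0, which anchors the stalk, had 276, 271, 243, 283 and 270 CPM at P60 and 579, 411 and 479 CPM at P0 (-0.86 ± 0.13, edgeR adjusted p = 3.78e-05). Its groups were also apart, with the 5 P60 batches close together.

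**Figure D3:**
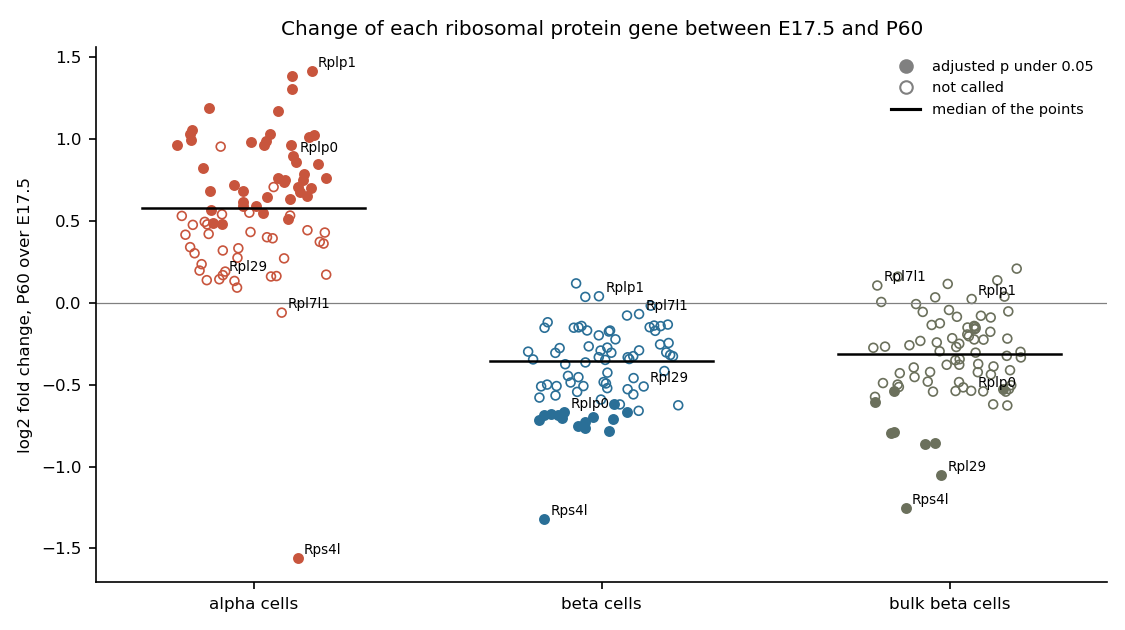
Log2 fold change of each member tested, P60 over E17.5, in alpha cells, beta cells and bulk beta cells; filled points passed an adjusted p of 0.05, black lines are medians of the points drawn, and Rpl3l (6 cells with a read) is left out. Alpha-cell points lie mostly above 0 and both beta-cell sets mostly below, and Rps4l is at the bottom of all 3 sets.

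Bulk beta cells gave a smaller set of falls. Between E17.5 and P60, 9 of 80 members fell and 0 rose, where 29.1% of all genes were called, 15.2% lower and 13.8% higher, so the share of members called was not above that of all genes. The median was -0.31, against -0.03 for all genes, and 71 of 80 members lay below 0. Between P0 and P60, 7 fell and 0 rose (39.5% of all genes were called, 20.9% lower and 18.6% higher; medians -0.19 and -0.06). With the acinar marker sum as a covariate, 0 members passed in either comparison. Leaving out single libraries left 1 to 5 calls against E17.5 (1 without P60 library 1, 2 without E17.5 library 2, 3 without E17.5 library 1, 5 without P60 library 2). Against P0 it left 0 without P0 library 1, 1 without P60 library 2, 3 without P0 library 2, and 3 (1 higher, 2 lower) without P60 library 1.

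Rps4l had 21.4 and 21.4 CPM in the P60 bulk libraries and 40.8 and 61.2 CPM in the E17.5 libraries (-1.25 ± 0.27, edgeR adjusted p = 0.00474), which makes it the called member with the largest fall against E17.5, as it was in single beta cells. Rpl29, a small basic protein of the large subunit, had 35.5 and 54.0 CPM at P60 and 78.8 and 107 CPM at E17.5 (-1.05 ± 0.33, edgeR adjusted p = 0.0318). Rpl34, also of the large subunit, had 64.6 and 67.9 CPM at P60 and 126 and 115 CPM at E17.5 (-0.86 ± 0.20, edgeR adjusted p = 0.00739). The libraries of the 2 stages were apart for all 3 genes. Without E17.5 library 2, Rps4l (-0.93) and Rpl29 (-0.82) no longer passed, nor did Rpl29 (-0.77) and Rpl34 (-0.82) without P60 library 1. Against P0, Rps18 of the small-subunit head had 85.3 and 114 CPM at P60 and 197 and 184 CPM at P0 (-0.94 ± 0.26, edgeR adjusted p = 0.014), and Rpl10a had 128 and 104 CPM at P60 and 216 and 163 CPM at P0 (-0.71 ± 0.21, edgeR adjusted p = 0.0194). The libraries were again apart. Rps18 lost its call without P0 library 1 or P60 library 1, and Rpl10a without P0 library 1 or P60 library 2. Rpl29 (-0.94 ± 0.33, edgeR adjusted p = 0.039) lost it without any 1 of the 4 libraries.

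Over the 7 bulk stages, the members at 50 CPM or more that lay farthest from the common pattern were Rpl29, Rps2, Rpl7l1, Rps4l and Rpl13. The measure was the root mean square distance of stage means from the median member on the centred log2 scale, and it came to 0.29, 0.28, 0.28, 0.27 and 0.26. Rpl29 held within 0.10 to 0.21 above its own mean from E17.5 to P18 and stood 0.84 below it at P60 alone. Rps2, which sits at the mRNA entry of the small subunit, was 0.39 above its mean at both P0 and P9, and Rpl13 was 0.29 and 0.28 above its mean at the same stages. Rps4l declined from 0.60 above its mean at E17.5 to 0.64 below it at P60.

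**Figure D4:**
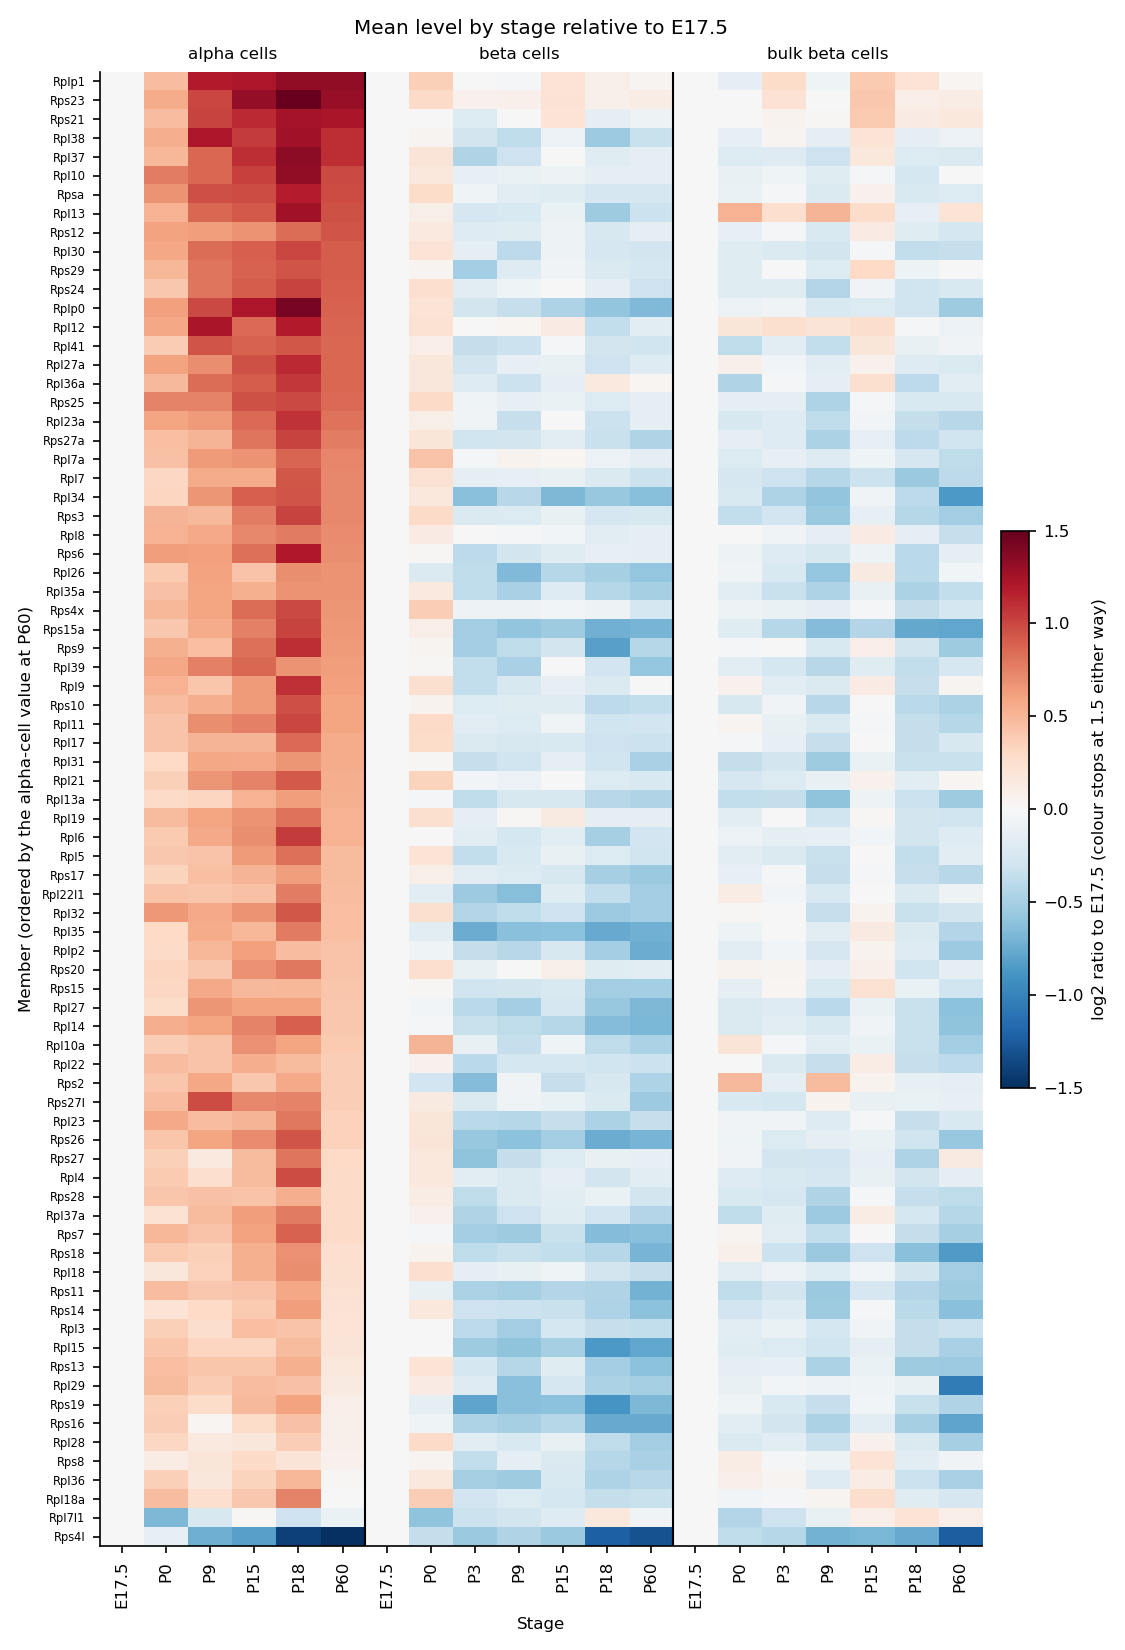
Mean level of 78 members by stage relative to E17.5 (log2 ratio of mean CPM + 0.5), for alpha cells, beta cells and bulk beta cells; red is above and blue below E17.5, and rows follow the alpha-cell value at P60. Most alpha-cell rows deepen in red to P18, most beta-cell rows are blue from P3 on, and the last 2 rows, Rpl7l1 and Rps4l, depart from both; Rpl3l and Rpl24, too low in 1 assay, are among those not drawn.

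The test of the difference itself compared the P60-to-E17.5 change in alpha cells with that in beta cells. The change was more positive in alpha cells for 54 of 81 members and less positive for 0, where 3.67% of all genes were called, 2.02% in the first direction and 1.65% in the other. The members' median difference was 1.01 log2 units, against 0.00 for all genes, and 80 of 81 lay above 0. Without beta E17.5 batch 3 the count was 35. It was 3 with FACS batches alone and 8 with hand-picked batches alone, where medians were 1.00 and 1.29, and 0 under ERCC scaling, where members and all genes had medians of 0.45 and -0.67. Library totals gave 58 calls and mean log2(TPM + 1) gave 69, all in the same direction. Shares of all genes called in these alternative fits are not given here.

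Rplp0 differed most among the named members: it had 488, 628, 549, 515 and 493 CPM in P60 alpha batches and 304, 334, 310 and 214 CPM in E17.5 alpha batches, and 276, 271, 243, 283 and 270 CPM in P60 beta batches and 426, 376 and 478 CPM in E17.5 beta batches. Its groups were apart in both cell types and in opposite order, and the difference of changes was 1.57 ± 0.18 (edgeR adjusted p = 5.31e-07). For Rpl38, a large-subunit protein known in mice for its part in the translation of Hox mRNAs, the difference was 1.52 ± 0.30 (edgeR adjusted p = 0.00152), and for Rpl34 it was 1.52 ± 0.34 (edgeR adjusted p = 0.00605). Rpl38 had 84.2 to 153 CPM in P60 and 31.6 to 65.8 CPM in E17.5 alpha batches, without overlap, and 61.0 to 74.0 CPM in P60 and 72.1 to 103 CPM in E17.5 beta batches, which overlapped.

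At P60, of 81 members, 77 were higher in alpha cells and 0 lower, where 12.9% of all genes were called, 5.92% higher and 7.02% lower. The median log2 fold change was 1.04, a 2.06-fold higher level, against 0.02 for all genes, and for 76 of the 84 members the 5 alpha batches lay wholly above the 5 beta batches, as did those of 5.42% of all genes tested. Rpl7l1, Rps4l, Rpl39 and Rpl3l did not pass. Averaged over the 6 shared stages, 77 members were again higher in alpha cells and 0 lower (28.8% of all genes were called, 14.1% higher and 14.6% lower; medians 0.77 and 0.05). Under ERCC scaling the counts were 10 at P60 and 40 over the 6 stages, all higher in alpha cells, and the medians of all genes shifted to -0.33 and -0.29.

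Among called members at 50 CPM or more, Rpl13, Rpl34 and Rpl13a stood highest. Rpl13, a large-subunit protein, had 379, 340, 308, 346 and 295 CPM in P60 alpha batches and 121, 122, 102, 120 and 126 CPM in P60 beta batches, a wide gap (1.50 ± 0.15, edgeR adjusted p = 1.09e-09). Rpl34 had 179, 299, 173, 245 and 188 CPM in P60 alpha batches and 99.6, 76.7, 61.8, 73.9 and 88.6 CPM in P60 beta batches (1.47 ± 0.22, edgeR adjusted p = 5.46e-06). Rpl13a, known outside the ribosome for its part in silencing inflammatory mRNAs, had 495, 528, 486, 503 and 488 CPM in P60 alpha batches and 194, 198, 183, 180 and 203 CPM in P60 beta batches (1.39 ± 0.14, edgeR adjusted p = 2.05e-09). All 3 genes had groups apart. Over the 6 shared stages, Rpl9 and Rpl36a of the large subunit and Rpl13 had the largest differences among called members at 50 CPM or more, at 1.21, 1.21 and 1.14.

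At E17.5, 0 members were higher in alpha cells and 2 lower, where 8.3% of all genes were called, 3.25% higher and 5.05% lower, and the medians were 0.04 for members and 0.06 for all genes. Rplp0 had 304, 334, 310 and 214 CPM in alpha batches and 426, 376 and 478 CPM in beta batches (-0.57 ± 0.14, edgeR adjusted p = 0.00599). Rpl38 had 59.4, 65.8, 55.3 and 31.6 CPM in alpha batches and 77.8, 72.1 and 103 CPM in beta batches (-0.74 ± 0.23, edgeR adjusted p = 0.0389). Beta batches were higher throughout for both. Rplp0 lost its call without beta batch 3 (-0.48), and Rpl38 without any 1 of the 3 beta batches or alpha batches 3 and 4 (-0.81 to -0.59). The scale decides the direction of other members here: library totals gave 14 higher in alpha cells and 0 lower, and mean log2(TPM + 1) 62 and 0, with medians over all genes of 0.40 and 0.18. Leaving out single batches gave 0 calls without beta E17.5 batch 3, 4 without alpha batch 2, and 1 without any of beta batches 1 and 2 or alpha batches 3 and 4.

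**Figure D5:**
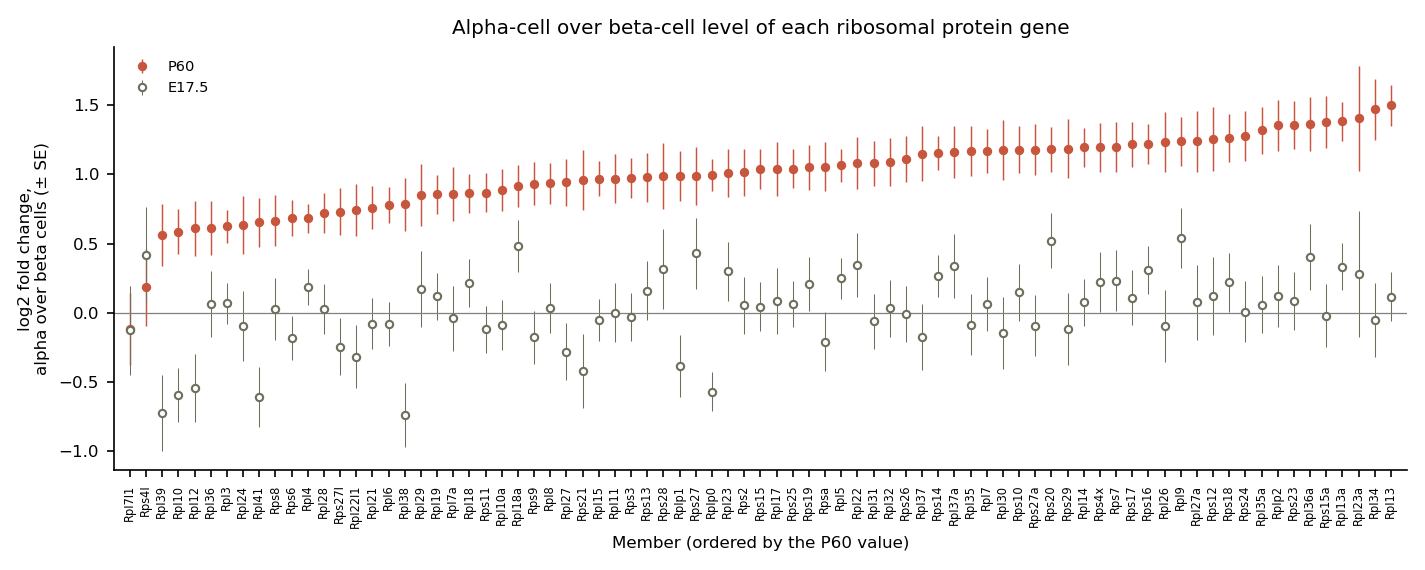
Log2 fold change, alpha over beta cells, of each of 79 members at P60 (filled) and at E17.5 (open), ± SE from the edgeR fit, ordered by the P60 value. At P60 all but Rpl7l1 lie above 0, up to 1.50 for Rpl13, whereas E17.5 values scatter on both sides of 0.

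In alpha cells 2 members rose between E17.5 and P0 and 0 fell, where 0.248% of all genes were called, 0.173% higher and 0.0755% lower, although 79 of 81 members lay above 0 with a median of 0.52. Rps25 of the small subunit had 125, 201 and 145 CPM at P0 and 111, 94.0, 92.6 and 76.2 CPM at E17.5 (0.74 ± 0.17, edgeR adjusted p = 0.0439), and Rplp0 had 431, 504 and 403 CPM at P0 and 304, 334, 310 and 214 CPM at E17.5 (0.64 ± 0.14, edgeR adjusted p = 0.0386). The P0 batches were above the E17.5 batches for both genes. The count was 0 without any 1 of alpha E17.5 batch 4 and alpha P0 batches 2 and 3, 1 without E17.5 batch 2 or 3, and 5 without P0 batch 1. No member passed edgeR's test between E17.5 and P0 in single beta cells, where 0.0809% of all genes were called, 0.0701% higher and 0.0108% lower. Nor did any in bulk, where 6.34% of all genes were called, 2.98% higher and 3.36% lower. DESeq2 called 0 in both. For the same pair of stages, edgeR's unadjusted p was under 0.05 for 63 of 81 members (77.8%) in alpha cells, against 9.89% of all genes. It was under 0.05 for 1 member in single beta cells (1.23%, against 7.29% of all genes) and 0 in bulk (against 26.5%).

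Between P0 and P60 in alpha cells, 2 members rose and 1 fell, where 5.25% of all genes were called, 1.9% higher and 3.35% lower, and the medians were 0.11 for members and -0.01 for all genes. Rplp1 had 222, 319, 198, 273 and 247 CPM at P60 and 130, 177 and 108 CPM at P0 (0.85 ± 0.22, edgeR adjusted p = 0.0135). Rps23 rose by 0.75 ± 0.20 (edgeR adjusted p = 0.0215), with 109 to 160 CPM at P60 and 55.3 to 96.9 CPM at P0. Rps4l fell by 1.50 on the log2 scale (edgeR adjusted p = 0.00251), with 17.3 to 39.1 CPM at P60 and 56.4 to 106 CPM at P0. For all 3 genes the groups were apart. Without P60 batch 2, Rps23 no longer passed (0.62). Rps4l alone passed without P0 batch 1 or without P0 batch 3, under FACS batches alone and under ERCC scaling. Against library totals 35 members fell and 0 rose.

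Of the stalk proteins, which bring elongation factors to the ribosome, Rplp0 fell in beta cells between E17.5 and P60 (-0.67 ± 0.13, edgeR adjusted p = 0.000669), as did Rplp2 (-0.75 ± 0.21, edgeR adjusted p = 0.0178), while Rplp1 had a log2 fold change of 0.04 ± 0.21 and did not pass. In bulk the values were -0.54, -0.54 and 0.02, none of which passed. In alpha cells Rplp0 and Rplp1 rose and Rplp2, at 0.48 ± 0.20, did not pass (edgeR adjusted p = 0.12). All 3 were higher in alpha than in beta cells at P60, by 1.00, 0.99 and 1.35 log2 units.

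Rpsa, the small-subunit protein also known as a laminin receptor, rose in alpha cells by 1.01 ± 0.19 and had a beta-cell value of -0.25 ± 0.20 that did not pass. Rps6, the substrate of the S6 kinases below mTORC1, rose in alpha cells by 0.72 ± 0.14 and had -0.14 ± 0.15 in beta cells. Rpl5 and Rpl11, which carry the smallest ribosomal RNA into the large subunit and bind Mdm2 when ribosome assembly fails, rose in alpha cells by 0.51 ± 0.13 and 0.68 ± 0.19 and had -0.30 ± 0.14 and -0.29 ± 0.20 in beta cells. The alpha-minus-beta difference in change passed for all 4, at 1.26, 0.86, 0.82 and 0.97 (edgeR adjusted p = 0.00443, 0.0095, 0.00706 and 0.0383).

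Among paralog-like members, neither Rpl22l1 nor Rps27l passed between E17.5 and P60 in alpha or beta cells, and both were higher in alpha cells at P60, by 0.75 ± 0.19 and 0.73 ± 0.17, beside 1.08 ± 0.19 for Rpl22 and 0.99 ± 0.21 for Rps27. The alpha-minus-beta difference in change passed for Rpl22l1 and Rps27l, at 1.06 ± 0.30 and 0.97 ± 0.27 (edgeR adjusted p = 0.0331 and 0.0284). For Rpl22 and Rps27 it was 0.73 ± 0.30 and 0.56 ± 0.33 and did not pass. Rps27l is known as a p53 target. Rpl7l1, which is related to Rpl7, had 30.8, 34.1, 47.0, 39.7 and 27.7 CPM in P60 alpha batches and 46.1, 37.9, 44.0, 38.9 and 28.2 CPM in P60 beta batches, and these overlapped throughout. Its alpha-over-beta value was -0.12 ± 0.26 at P60, and its change with stage was -0.06 ± 0.28 in alpha and -0.07 ± 0.30 in beta cells. Rps4l was at 0.18 ± 0.28 in alpha over beta cells at P60. Reads of Rpl3l, Rpl10l and Rpl39l numbered 5, 1 and 5 over all P60 alpha batches and 1, 1 and 0 over all P60 beta batches, so no fold is given; a count of 0 allows up to 3 reads.

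Of 35 translation factors and other TOP mRNAs, 12 were higher and 3 lower in alpha than in beta cells at P60 (42.9% called, against 12.9% of all genes; median 0.37, against 0.02), led by Npm1 (1.26 ± 0.14), a nucleolar ribosome-assembly factor, and Eef1b2 (1.06 ± 0.14), a subunit of the elongation factor 1 exchange complex. Between E17.5 and P60 the same list had 4 higher and 6 lower in alpha cells (28.6% called, against 9.97% of all genes; median -0.13), where Eef1g rose by 0.97 ± 0.17 and Pabpc1, the poly(A)-binding protein, had -0.78 ± 0.14. In beta cells 1 was higher and 9 lower (28.6%, against 6.96%; median -0.37), with Npm1 at -0.90 ± 0.15 and Hnrnpa1, an RNA-binding splicing factor, at -1.03 ± 0.19. In bulk 2 were higher and 8 lower (28.6%, about the 29.1% of all genes; median -0.31), led by Hnrnpa1 (-1.07 ± 0.15) and Eif4a1 (-1.09 ± 0.15).

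Of 57 genes for ribosome assembly, 3 were higher and 1 lower in alpha than in beta cells at P60 (7.02% called, below the 12.9% of all genes; median 0.02), with Npm1 and Ebna1bp2 leading. Between E17.5 and P60 0 rose and 3 fell in alpha cells (5.26%, below the 9.97% of all genes; median -0.08), led by Nop58 (-1.03 ± 0.18), a core protein of box C/D particles, and Rrp1 (-0.63 ± 0.13). Of 23 genes for ribosomal RNA synthesis, 2 were higher in alpha cells at P60, Polr2e and Tbp, and 0 lower (8.70% called, against 12.9% of all genes; median 0.16). Of 77 mitochondrial ribosomal protein genes, whose products form the separate ribosome of mitochondria, 4 were higher and 1 lower in alpha cells at P60 (6.49% called, below the 12.9% of all genes; median 0.00), led by Mrpl52 and Mrpl41. In alpha cells 1 of them was higher and 6 were lower at P60 than at E17.5 (9.09%, near the 9.97% of all genes; median -0.25), led by Mrps7 and Mrpl1. Of 27 growth-control genes, 3 were higher and 0 lower in alpha cells at P60 (11.1% called, against 12.9% of all genes; median 0.10), led by Maf1, a repressor of RNA polymerase III (1.10 ± 0.17), and Trp53 (1.06 ± 0.22). Npm1 is on both the TOP and the assembly list.

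Collection by hand or by FACS changed no member past the threshold, with 0 calls among members and 0.0% of all genes called by edgeR. At an unadjusted p under 0.05 there were 28 of 81 members (34.6%), against 1769 of 18537 genes (9.54%), and DESeq2 called 2 members. The members' median was -0.15 (hand-picked over FACS), against -0.04 for all genes, and 79 of 81 members lay below 0. The summed levels of the collections were apart at E17.5, where hand-picked batches were the lower: 7732 CPM in 1 hand-picked batch and 10816 to 12170 CPM in 3 FACS batches of alpha cells, and 8443 to 9991 CPM in 2 hand-picked batches and 11701 CPM in 1 FACS batch of beta cells. At P60 they overlapped. In P60 alpha cells, hand-picked batches summed to 13267 to 18370 CPM and FACS batches to 14640 to 15247 CPM, and in P60 beta cells to 7074 to 7903 CPM and 7540 to 8128 CPM.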

How the data were processed

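Bulk and Smart-seq2 read counts per gene were deposited by the authors, together with a gene length column (unit other) that was used for levels per kilobase. TopHat2 2.1.0, HTSeq 0.6.0 and DESeq 1.20.0 and the builds GRCm38 and mm10 are named in the submitters' processing notes; how multi-mapping reads were counted is not given in the sources used here. Cells were summed by labelled batch (45 batches of 866 cells), and 51 single-cell columns of other samples were not used. The unused columns included Ins1-RFP+ cells labelled as enriched for proliferative cells by PCR. edgeR 4.0.16 (R 4.3.3) quasi-likelihood tests used TMM scaling, its low-count filter and, for batches, a collection term; calls are Benjamini-Hochberg adjusted p under 0.05 over all genes. Alternatives used DESeq2 1.42.0, limma 3.58.1 (on log2(TPM + 1) computed from counts and lengths, in place of the deposited TPM table), other scalings, filters and left-out batches. Counts of 3 or fewer reads were read as the limit of detection, which covers counting error only. In simulated counts, changes were put on genes drawn at random from all that passed the filter, with a spread set by mean level. The rates therefore cover genes of all levels and are not those of the members. For bulk P60 against E17.5, 33 of 100 genes changed 2-fold and 66 of 99 changed 4-fold were recovered (15464 genes, 2 false calls). For alpha against beta cells at P60 these were 8 of 96 and 30 of 97 (17655 genes, 0 false calls). For the difference in change they were 1 of 97 and 10 of 95 (17655 genes, 1 false call). In each comparison the 3 called members with the largest rise and the 3 with the largest fall at 50 CPM or more in the higher group are named, with stalk, 5S-binding and paralog members, the extremes by length and by bulk pattern, and the 2 related genes with the smallest p. A gene that the rule would name is not reported here. The members and lists were chosen with earlier results of these data known. Numbers were not used as pairs, since same-numbered libraries and batches were not shown to be pairs. Correlations of their deviations reached 0.43 in bulk and 0.10 in single-cell batches.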

Additional observations from a re-analysis of the deposited data

Results flagged for a closer look

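Values of the named members and of the summed share were screened for a batch far from the others in the 4 groups of 4 or 5 batches. Of 76 such screens 5 found one. The screens share the same batches and are not independent, so the number found cannot be set against chance. In E17.5 alpha cells the hand-picked batch 4 was low for Rpl13 (105 CPM, against 189 to 197 in the other batches), Rpl13a (263 CPM, against 364 to 380) and Rps18 (109 CPM, against 210 to 224). In P60 beta cells a batch was low for Rpl13 (102 CPM, against 120 to 126). In P3 beta cells a batch was high for Rpl9 (95.1 CPM, against 76.8 to 79.9). The change between E17.5 and P60 differed between alpha and beta cells for 54 members by edgeR's test of the difference, with Rplp0 (1.57), Rpl38 (1.52) and Rpl34 (1.52 log2 units) the largest of those named.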

How the results depend on the processing

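Counts here are members called, and directions are those of the report unless given. The share of all genes called under each alternative setting is not given, here or in the sections above. No such count therefore shows a change particular to the members. Library totals gave 59 (bulk, P60 against E17.5), 53 (bulk, P60 against P0), 79 and 78 (beta, the same pairs), 19 (alpha, P60 against E17.5, 17 of them lower), 0 (alpha, P0 against E17.5), 35 lower (alpha, P60 against P0) and 14 higher (alpha against beta, E17.5). Mean log2(TPM + 1) gave 80 and 79 in beta cells, 45 lower, 1 lower and 56 lower in the 3 alpha comparisons in that order, and 62 higher for alpha against beta at E17.5, where Rplp0 was at 0.12. ERCC scaling gave 0 and 1 in beta cells, 1 lower, 0 and 1 lower in alpha cells, 0 for the difference in change, 0, 10 and 40 for alpha against beta at E17.5, at P60 and over 6 stages, and 4 higher for collection. No low-count filter gave 16 and 12 in bulk and 0 for alpha P0. The acinar covariate gave 0 and 0 in bulk, with Rpl29 at 0.47 against P0. DESeq2 gave 24 and 31 in beta cells, 7 and 5 for alpha P0 against E17.5 and P60 against P0, 7 for alpha against beta at E17.5 and 2 for collection. FACS batches alone gave 2 and 6 in beta cells, 13, 0 and 1 lower in alpha cells, 3 for the difference in change and 1 at E17.5; hand-picked batches alone gave 1 and 0, 14, 0 and 1, 8 and 0. No collection term gave 1 at E17.5.

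Same-numbered batches were not shown to be pairs (7 of 21 bulk pairs and 1 of 217 single-cell pairs correlated above 0.1). With the replicate number as a block, beta P60 against P0 gave 10 and alpha P0 against E17.5 gave 0; other counts stayed within 1.5 times, 12, 0 and 8 in bulk.

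Leaving out single libraries or batches gave 1 to 5 and 0 to 3 (bulk, P60 against E17.5 and P0), 0 to 0 (bulk and beta, P0 against E17.5), 6 to 16 and 8 to 17 (beta), 24 to 45, 0 to 5 and 1 to 4 (alpha), 35 to 55 (difference in change), 0 to 4, 70 to 76 and 76 to 78 (alpha against beta) and 0 to 0 (collection). The causes were not tested. Of the alternatives for 31 named values, 565 kept the call and direction, 97 kept the direction only and 2 reversed, both given above.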
